A study of Mus musculus with 16 samples.

Results

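A set of 45 genes of DNA replication and of nucleotide synthesis was followed through injury of the mouse flexor tendon: 45 of the 49568 gene rows in the count table. The list was set by gene symbol and function, with no threshold on the measured values, though with earlier results of these data known. It holds the genes for origin loading, the replicative helicase and its activators, the DNA polymerases, the sliding clamp and its loader, Okazaki fragment joining, single-strand binding, deoxynucleotide synthesis, fork protection and histone supply. All 45 symbols were found.

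Bulk RNA-seq was done on single deep digital flexor tendons of the hind paw from C57BL/6J mice (C57), a common laboratory strain, and from MRL/MpJ mice (MRL), a strain known for scarless healing of ear wounds. Each strain gave 4 uninjured tendons and 4 tendons collected 7 days post injury (dpi), after a partial laceration through 50% of the tendon width in the third digit. The study's methods describe male mice of 9 to 11 weeks, and the labels name no transgene or drug in any of the 4 groups. The surrounding sheath was part of what was collected, so each library holds tendon and sheath cells, and the injured ones also hold cells that had entered the wound. The uninjured libraries carry replicate numbers in their labels, whereas the injured ones are numbered here only to name them. Because whole tissue was sequenced, a change in the share of dividing cells and a change of RNA level per cell cannot be told apart.

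DNA replication starts where the origin recognition complex, Cdc6 and Cdt1 load the ring of the Mcm2 to Mcm7 proteins onto DNA, and geminin (Gmnn) blocks a renewed loading in the same cycle. At the start of S phase, Mcm10, Cdc45 and the GINS complex turn the ring into an active helicase. Polymerase alpha with primase lays down primers, polymerases epsilon and delta extend them, and Pcna, placed by the Rfc clamp loader, holds the polymerases on the template. Ribonucleotide reductase (Rrm1 and Rrm2), thymidylate synthase (Tyms) and thymidine kinase (Tk1) supply the deoxynucleotides. In adult tendon most cells rest outside the cell cycle, and many of these genes are known targets of the E2F transcription factors, which act at entry into S phase.

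Total counts ranged from 12552424 to 23741648, and the 4 injured MRL libraries, at 18524170 and above, were deeper than the other 12. A count of 3, taken as the floor of detection, stood for 0.128 to 0.237 CPM, the unit of all levels below, in which counts are scaled to a common library size. The label of 1 uninjured library in each strain went against its strain-separating genes. Of 38 genes above 2 CPM in the 7 other MRL libraries and below 0.5 CPM in the 7 other C57 libraries, all 38 were above 2 CPM in the library labelled C57 uninjured 4, and 37 were below 0.5 CPM in the library labelled MRL uninjured 4. Of 8 genes with the opposite pattern, 7 were below 0.5 CPM in the library labelled C57 uninjured 4, where Cwh43 was above 2 CPM, and 7 were above 2 CPM in the library labelled MRL uninjured 4. Whether these labels were exchanged was not tested, and they were kept. The 12 epidermal markers took 6.33% of the counts in the library labelled C57 uninjured 4 and at most 0.0788% elsewhere, and its rank correlation with the other C57 uninjured libraries was 0.783 to 0.828. Skeletal muscle markers took 6.45% of the counts in C57 injured 1 and at most 0.201% elsewhere. The 10 macrophage markers summed to 0.0644% to 0.166% of the counts in uninjured libraries, 0.439% to 0.892% in injured C57 and 0.331% to 0.638% in injured MRL. The 10 tenocyte markers took 1.91% to 7.48% and, apart from 1 marker in uninjured C57, were each above 1 CPM in every library. Counts of called genes are therefore given with all libraries and without the uninjured libraries numbered 4, and a gene's value without them is given where its call changed.

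In MRL tendon, 19 of the 45 genes rose at 7 dpi and none fell, against 5.25% of the 14274 genes tested that rose. A gene was called where edgeR's quasi-likelihood test gave an adjusted p under 0.05 (Benjamini-Hochberg over all genes tested) with an absolute log2 fold change over 1. The median log2 fold change of the 45 genes was 1.33, whereas that of all genes tested was -0.03. For 30 of the 45 genes every injured MRL library lay above every uninjured one, which was so for 14.2% of all genes tested. DESeq2 called 23 of the 45, against 6.86% of the genes it tested. Without the library labelled MRL uninjured 4 the count was 18 (4.68% of all genes), and the ranges of 34 genes were apart (16.3% of all genes). Mcm10, Gins1 and Rfc5 were then called, and Cdc6, Cdt1, Pole2 and Rfc3 were not.

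**Figure D1:**
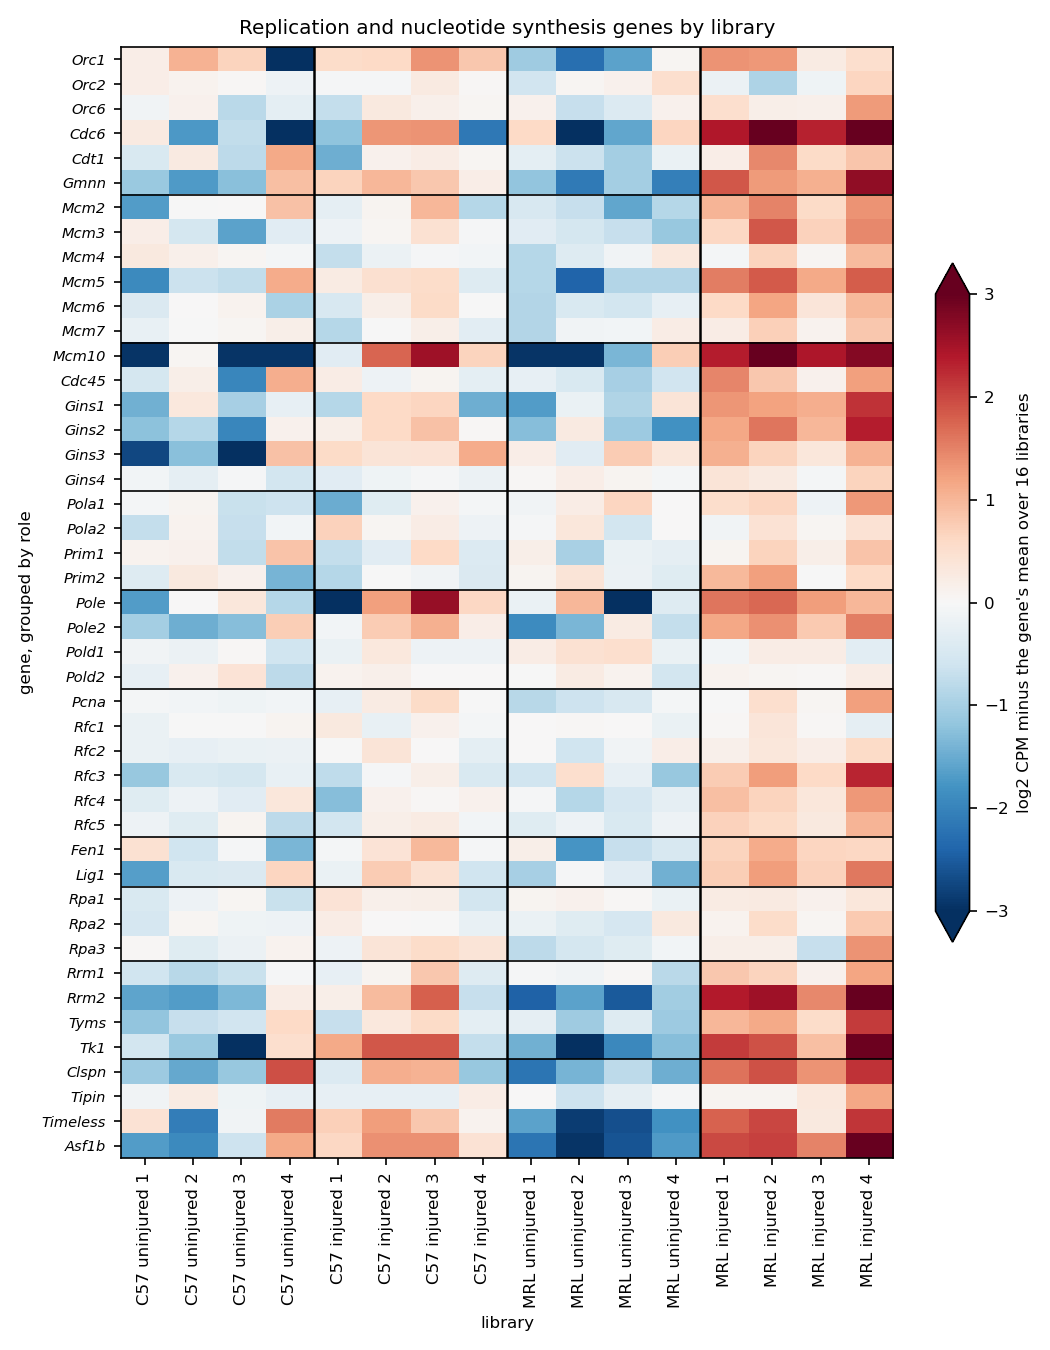
Level of each of the 45 genes (rows, grouped by role) in each of the 16 libraries (columns), as log2 CPM minus the gene's mean over all libraries, with the colour scale cut at -3 and 3. Red fills most cells of the 4 injured MRL columns, the column labelled C57 uninjured 4 holds more red than its 3 neighbours in Gmnn, Mcm5, Clspn and Asf1b, and rows such as Orc2, Rfc1 and Pold2 stay pale throughout.

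In C57 tendon none of the 45 genes was called at 7 dpi, against 0.908% of the 14424 genes tested that rose. The edgeR test gave 4 of them an unadjusted p under 0.05 (Mcm10, Gins2, Rrm2 and Tk1, all higher), where 15.3% of all genes had one, and DESeq2 called 0 (4.17% of the genes it tested). In no case did every injured library lie above every uninjured one (7.58% of all genes). The median log2 fold change was 0.28, and that of all genes was -0.05. These counts turned on the library labelled C57 uninjured 4. Without it, 6 of the 45 genes rose, against 3.5% of 14983 genes tested, 12 had an unadjusted p under 0.05 (11 higher and Mcm4 lower, with 21% of all genes in either direction) and the ranges of 8 were apart (12% of all genes). The median was then 0.42. The same count of 6 was found when C57 injured 1, the library with muscle markers, was left out as well. The share of all genes called in that fit is not given here.

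**Figure D2:**
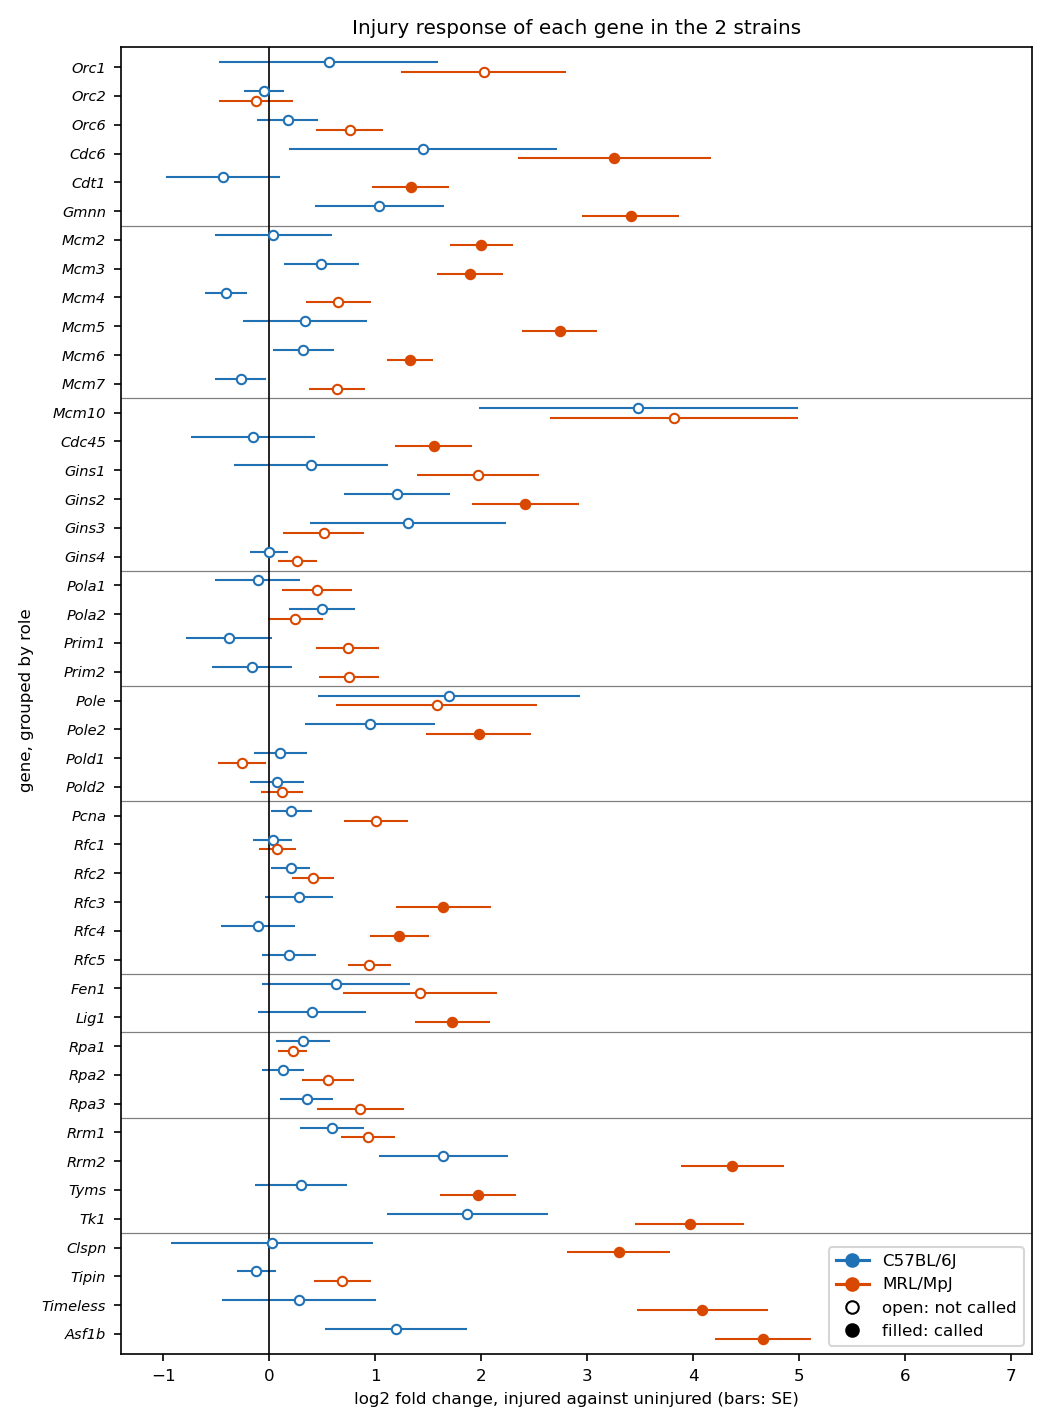
Log2 fold change of injured against uninjured tendon for each gene (points) with its standard error (bars), in C57 (blue) and MRL (orange) with all libraries; filled points were called. The 19 filled points are all MRL, Asf1b and Rrm2 have the largest called values at 4.66 and 4.37, and no C57 point is filled.

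A sequence feature that the choice of genes did not use was counted at the start sites. RefSeq promoters of mouse build GRCm38.p6, each of 300 bases from 250 before to 50 after the start of the transcript, were at hand for 36 of the 45 genes. The letters of an E2F site (TTTCCCGC, TTTGGCGC, TTTCGCGC or TTTGCCGC, read on both strands, with overlapping matches kept) stood in 14 of the 36 (38.9%), against 2.6% of 27025 genes with a promoter in the table. TTTCGCGC stood in 7 of the 36, TTTCCCGC and TTTGGCGC in 6 each, and TTTGCCGC in 0. The letters of a cell cycle homology region (TTTGAA or TTCGAA, both strands) stood in 8 of the 36 (22.2%), against 21.7% of all genes. Among the 10200 genes tested in MRL that had a promoter entry, the shares were 4.6% and 16.4%. The stretches below are shown because they hold the E2F letters, written in capitals, upstream of genes from 5 roles, and each is read 5′ to 3′ on the strand of its gene. Orc1, Mcm7, Gins3 and Rfc3 are cut to 30 bases because their match lies in an annotated exon. Matches are letters in a window and were not tested as sites.
Orc1, chr4:108579416-108579445, plus strand: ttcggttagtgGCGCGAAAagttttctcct
Cdc6, chr11:98907982-98908066, plus strand: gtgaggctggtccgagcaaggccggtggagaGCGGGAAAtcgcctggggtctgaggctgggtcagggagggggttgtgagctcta
Mcm5, chr8:75109312-75109411, plus strand: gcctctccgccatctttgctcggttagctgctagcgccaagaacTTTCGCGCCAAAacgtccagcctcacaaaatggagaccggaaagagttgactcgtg
Mcm6, chr1:128359731-128359830, minus strand: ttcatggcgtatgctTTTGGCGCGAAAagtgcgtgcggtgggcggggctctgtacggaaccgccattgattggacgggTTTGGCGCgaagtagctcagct
Mcm7, chr5:138172030-138172059, minus strand: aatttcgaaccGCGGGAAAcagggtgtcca
Gins3, chr8:95633507-95633536, plus strand: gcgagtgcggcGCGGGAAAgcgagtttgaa
Pola1, chrX:93632240-93632339, minus strand: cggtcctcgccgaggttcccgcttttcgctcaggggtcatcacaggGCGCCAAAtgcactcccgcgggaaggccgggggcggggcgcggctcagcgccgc
Rfc3, chr5:151651209-151651238, minus strand: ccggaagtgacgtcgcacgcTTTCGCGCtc

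Mcm5 holds 2 overlapping matches and Mcm6 holds 3, of which 2 overlap. The first match lies 153 bases upstream of the start in Mcm5, 110 in Mcm6, 138 in Cdc6 and in Pola1, and 10 in Rfc3. The 14 genes with the letters included 9 that rose in MRL (Cdc6, Cdt1, Mcm3, Mcm5, Mcm6, Pole2, Rfc3, Lig1 and Clspn), with a median log2 fold change of 1.69. Of the 22 with a promoter but without the letters, 8 rose, among them Rrm2, Tk1 and Asf1b, and the median was 0.98. Without the library labelled MRL uninjured 4 the counts were 5 of the 14 and 10 of the 22, with medians of 1.51 and 1.09, so the order of the shares of called genes turned with 1 library, and no link between the letters and the calls is read from them. Gmnn, Mcm4, Gins1, Gins2, Gins4, Prim2, Pole, Rfc2 and Tipin had no entry.

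Among the 6 genes for origin recognition and loading, 3 rose in MRL (Cdc6, Cdt1 and Gmnn), against 5.25% of all genes, with a median log2 fold change of 1.68 over the 6. Without the library labelled MRL uninjured 4 the count was 1, Gmnn, against 4.68% of all genes. Gmnn encodes geminin, the inhibitor of Cdt1. In MRL it stood at 3.41, 1.72, 3.80 and 1.82 CPM in uninjured libraries 1 to 4 and at 29.2, 19.2, 16.5 and 50.2 CPM in injured ones. The ranges were far apart, and the log2 fold change was 3.41 ± 0.46 (SE, adjusted p = 0.00231). In C57 Gmnn was at 3.603, 2.32 and 3.21 CPM in uninjured libraries 1 to 3, at 14.8 CPM in the library labelled C57 uninjured 4, and at 12.5, 15.8, 14.0 and 9.11 CPM after injury. That library lay inside the injured range, and the log2 fold change was 1.04 ± 0.61 with it (adjusted p = 0.452) and 2.03 ± 0.36 without it (adjusted p = 0.0146). Cdc6, a loader of the helicase, was counted at 3.09, 0, 0.594 and 3.16 CPM in uninjured MRL and at 11.1, 16.7, 10.4 and 27.5 CPM in injured MRL. The injured libraries were all higher, with a log2 fold change of 3.26 ± 0.91 (adjusted p = 0.0455), which became 3.74 ± 1.03 without the library labelled MRL uninjured 4 (adjusted p = 0.0589). Cdc6 in C57 was low in both states, at 2.40, 0.516, 1.15 and 0 CPM before injury and 0.796, 5.19, 5.29 and 0.356 CPM after it, and the ranges overlapped.

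Cdt1, the partner of Cdc6 in loading, went from 5.84 ± 1.46 CPM (SD, n = 4) in uninjured to 14.9 ± 5.72 CPM in injured MRL, a log2 fold change of 1.34 ± 0.36 (adjusted p = 0.0404, or 0.0535 without the library labelled MRL uninjured 4). Orc1, the subunit of the origin recognition complex with cell-cycle dependent levels, was at 0.717 ± 0.603 CPM and 2.96 ± 1.13 CPM in the same groups. It did not pass in edgeR (2.03 ± 0.78, adjusted p = 0.121) but was called by DESeq2. Orc6 had values of 0.76 ± 0.31 in MRL and 0.17 ± 0.29 in C57, neither of which passed. Orc2, a core subunit of the complex, was the flattest gene of this role. It stood at 15.9, 24.7, 25.9 and 34.0 CPM in uninjured MRL and at 21.1, 12.4, 21.8 and 37.2 CPM in injured MRL. Uninjured C57 had 27.4, 25.7, 24.5 and 21.5 CPM, and injured C57 had 23.3, 23.1, 28.5 and 24.2 CPM. All 4 ranges overlapped, with log2 fold changes of -0.12 ± 0.35 in MRL and -0.05 ± 0.19 in C57. Exons of Orc2 share 29.8% of their length with Nif3l1 on the opposite strand, and the kits named for these libraries do not mark the strand.

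Of the 6 subunits of the helicase ring, Mcm2, Mcm3, Mcm5 and Mcm6 rose in MRL, whereas Mcm4 and Mcm7 did not pass. Mcm5 had the smallest adjusted p. It was at 9.19, 3.09, 9.09 and 9.003 CPM in uninjured MRL and at 48.6, 60.2, 36.8 and 58.9 CPM in injured MRL. The lowest injured library was well above the highest uninjured one, and the log2 fold change was 2.74 ± 0.35 (adjusted p = 0.00184). In C57, Mcm5 stood at 4.34, 10.7 and 9.95 CPM in uninjured libraries 1 to 3, at 36.2 CPM in the library labelled C57 uninjured 4, and at 19.9, 23.2, 24.4 and 12.8 CPM after injury. The library labelled C57 uninjured 4 was the highest of the 8, and the log2 fold change was 0.34 ± 0.59 with it and 1.22 ± 0.38 without it (adjusted p = 0.839 and 0.101).

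Mcm2 was at 12.3, 10.7, 5.76 and 9.48 CPM in uninjured MRL and at 35.5, 49.1, 25.9 and 43.9 CPM in injured MRL, and these ranges were apart (log2 fold change 2.00 ± 0.30, adjusted p = 0.00374). The C57 libraries had 5.34, 17.1, 17.4 and 32.0 CPM before injury and 14.3, 18.5, 34.5 and 9.54 CPM after it, with full overlap. Mcm3 rose from 16.3 ± 3.63 to 61.1 ± 25.6 CPM in MRL, a log2 fold change of 1.90 ± 0.31 (adjusted p = 0.00523). Mcm6 rose from 54.7 ± 9.57 to 138 ± 34.6 CPM, a log2 fold change of 1.33 ± 0.22 (adjusted p = 0.00502). The ring has equal numbers of each subunit, yet the fold changes of its genes spanned 0.64 to 2.74 on the log2 scale. Mcm7 had the lowest, 0.64 ± 0.26 (adjusted p = 0.144). Mcm4, the largest adjusted p of the role, was at 19.8, 27.1, 33.0 and 44.5 CPM in uninjured MRL and at 34.1, 56.4, 37.1 and 68.9 CPM in injured MRL, so that the ranges overlapped (0.65 ± 0.30, adjusted p = 0.187). In C57 Mcm4 was at 43.8, 39.8, 37.1 and 34.2 CPM before injury and 21.6, 31.5, 34.7 and 33.7 CPM after it, with a log2 fold change of -0.40 ± 0.20 that did not pass (adjusted p = 0.368). A processed pseudogene of Mcm4 (Gm9577) was 91.1% identical over 1861 bases and had at most 3 counts in any library. One of Mcm7 (Gm5487) was 97.7% identical over 2157 bases and was not among the genes counted. How reads shared with them were counted was not tested.

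**Figure D3:**
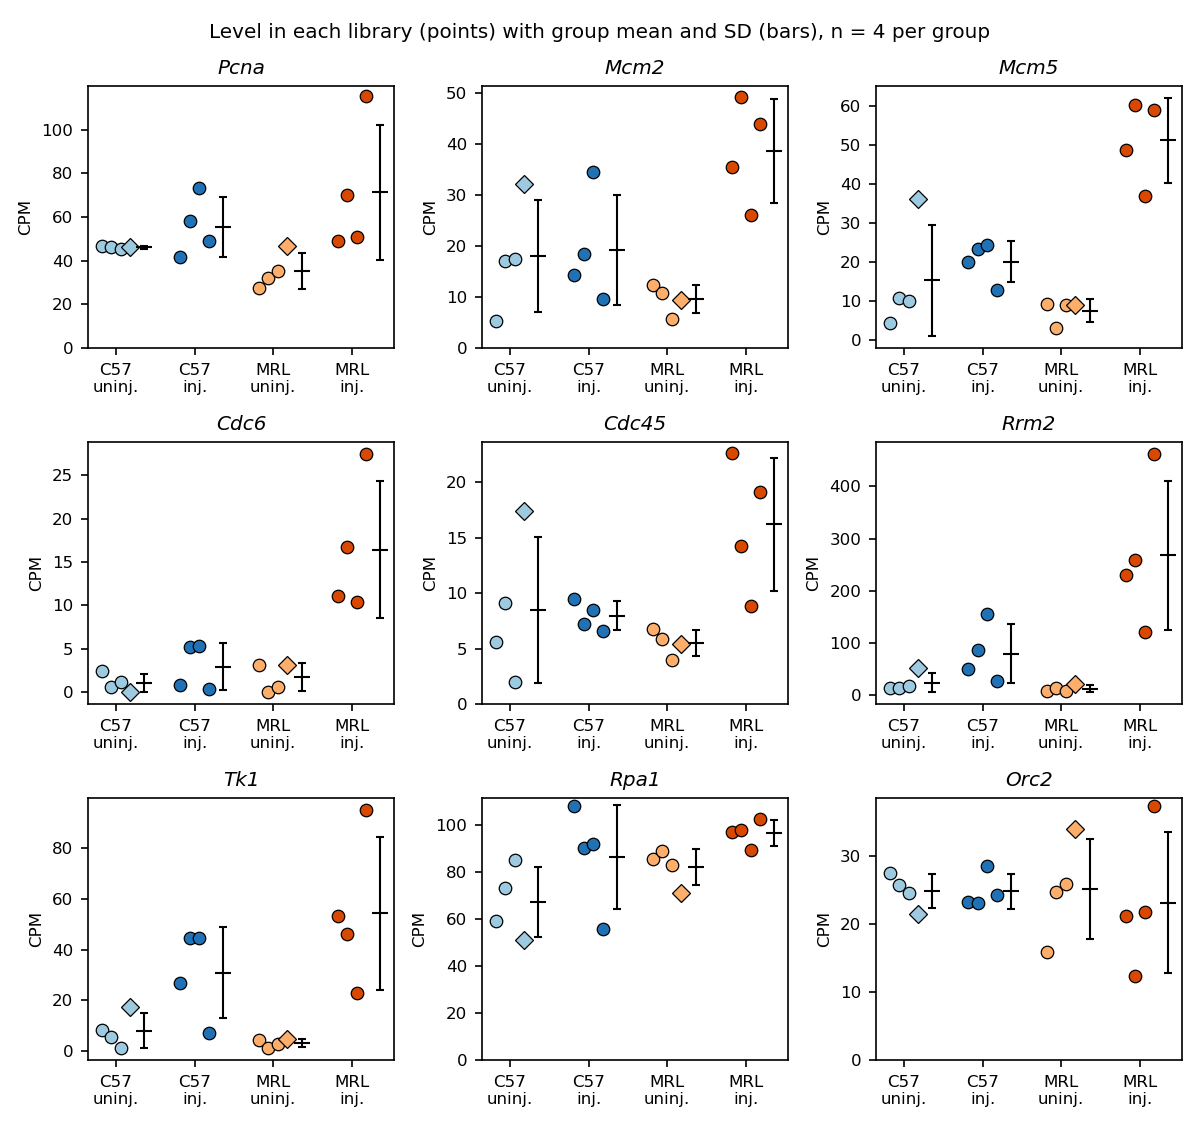
CPM of 9 genes in each library (points) by group, with the group mean and SD as bars (n = 4); diamonds are the 2 uninjured libraries numbered 4. The injured MRL points of Mcm2, Mcm5, Cdc6, Cdc45, Rrm2 and Tk1 lie above all uninjured MRL points, Rpa1 and Orc2 differ little between groups, and the C57 diamond is the highest uninjured C57 point for Mcm2, Mcm5, Cdc45, Rrm2 and Tk1.

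Helicase activation gave 2 called genes of 6 in MRL, Cdc45 and Gins2, against 5.25% of all genes. Without the library labelled MRL uninjured 4 it gave 4, with Gins1 and Mcm10 added, against 4.68%. Cdc45, the factor that joins the ring and GINS, stood at 6.76, 5.81, 3.98 and 5.37 CPM in uninjured MRL and at 22.6, 14.2, 8.83 and 19.1 CPM in injured MRL. The ranges were apart by a small margin, with a log2 fold change of 1.55 ± 0.36 (adjusted p = 0.0232). Its C57 levels stood at 5.60, 9.10, 1.99 and 17.4 CPM before injury and 9.49, 7.23, 8.51 and 6.55 CPM after it. The highest and the lowest of these 8 values both came from uninjured libraries, and the direction depended on the library labelled C57 uninjured 4 (-0.15 ± 0.59 with it and 0.47 ± 0.49 without it). Gins2 stood at 3.35, 10.05, 3.86 and 2.29 CPM in uninjured MRL and at 18.9, 25.7, 16.7 and 43.3 CPM in injured MRL, again without overlap (2.42 ± 0.50, adjusted p = 0.0143). Its C57 levels were 3.47, 4.52, 2.07 and 9.17 CPM before injury and 9.49, 12.7, 15.5 and 8.47 CPM after it. Overlap came from the library labelled C57 uninjured 4, and without that library Gins2 rose in C57 too (1.73 ± 0.40, adjusted p = 0.0389). As much as 67.3% of the exonic length of Gins2 is shared with Gse1 on the opposite strand, so its level is uncertain.

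Gins3, a GINS subunit, was in MRL at 5.38, 3.66, 7.96 and 5.92 CPM before injury and 9.91, 7.43, 5.95 and 9.68 CPM after it, with overlapping ranges (0.51 ± 0.38, adjusted p = 0.411). In C57 it was at 0.600, 1.87 and 0.306 CPM in uninjured libraries 1 to 3, at 8.65 CPM in the library labelled C57 uninjured 4, and at 6.98, 6.12, 6.25 and 10.3 CPM after injury. The first 3 libraries were thus lower than all other libraries of the series, whereas the 4th was in the range of MRL. Without that library the log2 fold change in C57 was 2.93 ± 0.66 (adjusted p = 0.034), the largest of the 6 calls. Gins1 was at 1.91 ± 1.17 CPM in uninjured and 7.53 ± 2.93 CPM in injured MRL and did not pass in edgeR with all libraries (adjusted p = 0.0515), but passed without the library labelled MRL uninjured 4 (adjusted p = 0.038) and in DESeq2. Gins4 was at 46.9 ± 3.34 and 56.7 ± 11.9 CPM in the same groups and did not pass (0.27 ± 0.18). Mcm10, which helps to activate the ring, was at 0, 0, 0.238 and 1.42 CPM in uninjured MRL and at 4.59, 8.02, 4.82 and 6.13 CPM in injured MRL, all apart (3.82 ± 1.17, adjusted p = 0.0618). It was called without the library labelled MRL uninjured 4 (6.04 ± 1.11, adjusted p = 0.0152), where the other uninjured libraries had 0, 0 and 4 counts, and by DESeq2 with all libraries. In C57 it was listed at 0 in 3 of the 4 uninjured libraries and at 0.613 to 5.29 CPM after injury.

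None of the 4 genes of polymerase alpha and primase was called in either strain. Prim2, the large primase subunit, was at 21.7, 26.7, 18.2 and 15.95 CPM in uninjured MRL and at 40.4, 48.2, 20.2 and 31.1 CPM in injured MRL, where only MRL injured 3 fell within the uninjured range (0.75 ± 0.29, adjusted p = 0.116). Uninjured C57 had 15.6, 24.8, 22.3 and 7.74 CPM of Prim2, and injured C57 had 11.1, 20.3, 18.9 and 15.1 CPM. Pola2, the regulatory subunit of polymerase alpha, was at 16.2, 21.0, 11.3 and 16.8 CPM in uninjured MRL and at 15.5, 22.6, 17.4 and 22.6 CPM in injured MRL. Its C57 levels were 10.1, 17.9, 10.3 and 15.9 CPM before injury and 26.9, 17.4, 19.4 and 15.02 CPM after it. Both strains showed overlap for Pola2, with log2 fold changes of 0.25 ± 0.26 in MRL and 0.50 ± 0.31 in C57. Prim1, the catalytic primase subunit, and Pola1, the catalytic polymerase subunit, had values of 0.74 ± 0.30 and 0.45 ± 0.33 in MRL.

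Of the 4 genes of polymerases epsilon and delta, none rose in MRL without the library labelled MRL uninjured 4, and with all libraries Pole2 did. This accessory subunit of polymerase epsilon was at 1.31, 1.94, 6.12 and 3.08 CPM in uninjured MRL and at 11.7, 13.5, 9.01 and 15.2 CPM in injured MRL (1.98 ± 0.50, adjusted p = 0.0304, or 0.0622 without the library labelled MRL uninjured 4). In C57 it was at 2.47, 1.81 and 2.07 CPM in uninjured libraries 1 to 3, at 8.65 CPM in the library labelled C57 uninjured 4, and at 4.84, 8.77, 10.9 and 5.91 CPM after injury. All injured C57 libraries exceeded the first 3, and without the library labelled C57 uninjured 4 Pole2 rose in C57 (1.79 ± 0.44, adjusted p = 0.048). Pold2, a subunit of polymerase delta, held its level. It was at 34.4, 41.2, 37.4 and 23.6 CPM in uninjured MRL and 37.2, 36.2, 35.8 and 40.8 CPM in injured MRL. In C57 the values were 29.5, 37.9, 46.4 and 20.2 CPM before injury and 37.7, 38.5, 34.8 and 35.2 CPM after it. The 95% interval of its log2 fold change in MRL included 0, and the estimates were 0.12 ± 0.20 in MRL and 0.08 ± 0.26 in C57. Pold1, the catalytic subunit of polymerase delta, was 1 of the 2 genes with a negative estimate in MRL (-0.26 ± 0.23, adjusted p = 0.504), Orc2 being the other. Pole, the catalytic subunit of polymerase epsilon, was at 1.82 ± 1.69 and 5.51 ± 1.25 CPM in uninjured and injured MRL and did not pass (1.58 ± 0.95).

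For the clamp and its loader, 2 of 6 genes rose in MRL, Rfc3 and Rfc4. Pcna, the clamp itself and a common stain for cycling cells, was at 27.5, 32.1, 35.2 and 46.8 CPM in uninjured MRL and at 48.9, 70.1, 50.9 and 116 CPM in injured MRL. The ranges were apart by a narrow margin, and the log2 fold change of 1.01 ± 0.30 missed the threshold (adjusted p = 0.0558). DESeq2 called Pcna. In C57 Pcna was at 46.8, 46.4, 45.2 and 46.3 CPM before injury and 41.5, 58.1, 73.4 and 49.1 CPM after it. The uninjured C57 libraries stood close together (46.2 ± 0.684 CPM, SD, n = 4), the injured ones lay on both sides of them, and the log2 fold change was 0.21 ± 0.19 (adjusted p = 0.654).

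The Pcna counts are tied to a processed pseudogene, Pcna-ps2, which is 99.2% identical over 781 bases. Pcna-ps2 was at 4.20, 5.60 and 4.81 CPM in MRL uninjured 1 to 3 and at 9.61, 13.3, 10.5 and 22.6 CPM in injured MRL. It was at 0 to 0.306 CPM in injured C57 and in C57 uninjured 1 to 3. The library labelled C57 uninjured 4 had 7.61 CPM and the library labelled MRL uninjured 4 had 0.158 CPM, each at the level of the other strain. Pcna-ps2 differed between injured MRL and injured C57 with a log2 fold change of 6.20 ± 0.75 (adjusted p = 0.00241). With the pseudogene added to Pcna, the sum was 39.1 ± 6.32 CPM in uninjured and 85.3 ± 36.9 CPM in injured MRL, and it passed (log2 fold change 1.12, adjusted p = 0.0316). How the reads were split between gene and pseudogene was not tested.

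Rfc3 rose from 14.2 ± 7.03 to 44.5 ± 26.4 CPM in MRL (1.64 ± 0.45, adjusted p = 0.041, or 0.0909 without the library labelled MRL uninjured 4). Rfc4 rose from 13.5 ± 3.15 to 31.7 ± 9.14 CPM (1.23 ± 0.28, adjusted p = 0.0207). Both are small subunits of the clamp loader. Rfc5, another small subunit, had the smallest adjusted p of the role, yet its fold change fell just short of the limit. It was at 23.2, 26.8, 21.7 and 27.1 CPM in uninjured MRL and at 48.7, 45.1, 36.6 and 61.1 CPM in injured MRL, without overlap (0.95 ± 0.21, adjusted p = 0.0173). Without the library labelled MRL uninjured 4 it was called (1.00 ± 0.22, adjusted p = 0.029), as it was without MRL injured 3. The C57 libraries stood at 27.1, 23.4, 31.9 and 17.5 CPM before injury and 20.4, 33.7, 35.6 and 28.6 CPM after it. Rfc1, the large subunit, was at 39.7, 40.4, 39.6 and 34.4 CPM in uninjured MRL and 40.2, 50.8, 40.8 and 32.5 CPM in injured MRL. For C57 the values were 34.1, 39.0, 39.3 and 41.8 CPM before injury and 48.1, 34.0, 43.1 and 37.9 CPM after it. All 4 groups overlapped for Rfc1 (0.08 ± 0.17 in MRL and 0.03 ± 0.19 in C57). Rfc2 had 0.41 ± 0.20 in MRL and 0.20 ± 0.19 in C57, neither called.

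Lig1, the ligase that seals Okazaki fragments, rose in MRL. It was at 6.96, 13.6, 11.1 and 5.05 CPM before injury and 23.3, 33.6, 22.8 and 42.3 CPM after it, with no overlap (1.73 ± 0.35, adjusted p = 0.0136). In C57 Lig1 was at 4.34, 10.1, 10.3 and 22.1 CPM before injury and 12.3, 23.97, 19.1 and 9.18 CPM after it, and the library labelled C57 uninjured 4 was the second highest. Fen1, the flap nuclease of the same step, was counted near the floor. It was at 1.18, 0.215, 0.594 and 0.711 CPM in uninjured MRL and at 1.70, 2.36, 1.67 and 1.64 CPM in injured MRL (1.42 ± 0.73, adjusted p = 0.228). The C57 values were 1.47, 0.645, 0.995 and 0.325 CPM before injury and 0.980, 1.42, 2.13 and 0.997 CPM after it. Exons of Fen1 are covered over 84.2% of their length by genes on the opposite strand (Gm10143 and Tmem258), so these values are not a measure of its level.

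The 3 subunits of replication protein A, which coats single-stranded DNA in replication and repair, were not called in either strain. Rpa1 was abundant in all groups, at 85.4, 88.8, 83.0 and 71.0 CPM in uninjured and 96.9, 97.6, 89.1 and 102 CPM in injured MRL. The ranges were apart by a small step, and the log2 fold change was 0.22 ± 0.14 (adjusted p = 0.312). In C57 Rpa1 was at 58.9, 73.1, 84.8 and 51.2 CPM before injury and 108, 89.96, 91.9 and 55.5 CPM after it. Rpa2 was at 29.3, 26.2, 23.9 and 41.5 CPM in uninjured and 36.2, 49.8, 35.4 and 57.8 CPM in injured MRL (0.56 ± 0.25, adjusted p = 0.167). In C57 Rpa2 was at 23.95, 35.3, 30.6 and 30.1 CPM before injury and 39.7, 33.9, 33.3 and 28.7 CPM after it. Rpa3 had 0.86 ± 0.41 in MRL and 0.35 ± 0.25 in C57.

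Nucleotide synthesis gave 3 called genes of 4 in MRL, with a median log2 fold change of 2.97. Rrm2, the subunit of ribonucleotide reductase made in S phase, was at 8.20, 14.5, 7.61 and 21.6 CPM in uninjured MRL and at 231, 259, 121 and 462 CPM in injured MRL. Its mean of 268 ± 142 CPM was the highest of the 45 genes in any group, and the log2 fold change was 4.37 ± 0.49 (adjusted p = 0.00119). In C57 Rrm2 was at 14.9, 13.8 and 17.4 CPM in uninjured libraries 1 to 3, at 51.8 CPM in the library labelled C57 uninjured 4, and at 50.4, 86.1, 155 and 27.5 CPM after injury. Every injured C57 library exceeded the first 3 uninjured ones, with a log2 fold change of 1.65 ± 0.61 over all libraries (adjusted p = 0.251) and 2.33 ± 0.54 without the library labelled C57 uninjured 4 (adjusted p = 0.0433). Rrm1, the partner subunit with steadier levels, was at 62.0, 58.6, 64.7 and 36.1 CPM in uninjured and 111, 101, 68.9 and 143 CPM in injured MRL. Its ranges were apart, but the log2 fold change of 0.93 ± 0.25 was under the limit (adjusted p = 0.0411). In C57 Rrm1 was at 41.7, 35.6, 39.6 and 62.0 CPM before injury and 53.2, 67.4, 112 and 48.3 CPM after it.

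Tk1, the cytosolic thymidine kinase of S phase cells, was at 4.40, 1.36, 3.09 and 4.98 CPM in uninjured and 53.0, 46.0, 22.9 and 94.8 CPM in injured MRL, far apart (3.97 ± 0.51, adjusted p = 0.00195). Tk1 in C57 was at 8.34, 5.55, 1.30 and 17.3 CPM before injury and 27.0, 44.7, 44.6 and 7.40 CPM after it. C57 injured 4 lay within the uninjured range with or without the library labelled C57 uninjured 4, and the log2 fold change was 1.87 ± 0.76 and 2.56 ± 0.76 (adjusted p = 0.293 and 0.0961). Tyms, which makes thymidylate, rose from 14.6 ± 4.36 to 57.6 ± 28.8 CPM in MRL (1.98 ± 0.36, adjusted p = 0.00789). Rrm2, Tk1 and Tyms each have a processed pseudogene of over 90% identity in part of the transcript (Gm48455, Gm5742 and Tyms-ps), as have Cdc6 (Gm9430), Gmnn (Gm6510), Rfc5 (Gm12870) and Rpa3 (Gm6195). Gm9430 and Gm6510 had 0 counts in every library, Gm6195 at most 2, Gm5742 at most 5 and Gm12870 at most 2.07 CPM. Gm48455 and Tyms-ps were not among the genes counted.

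Of the 4 genes for fork protection and histone supply, 3 rose in MRL, and the median log2 fold change of 3.69 was the highest of the 10 roles. Asf1b, a histone chaperone that brings new histones to replicated DNA, had the smallest adjusted p of all 45 genes. It was at 2.36, 1.36, 1.78 and 3.40 CPM in uninjured and 44.9, 47.4, 32.0 and 100.5 CPM in injured MRL (4.66 ± 0.45, adjusted p = 0.000876). In C57 it was at 3.47, 2.90 and 7.27 CPM in uninjured libraries 1 to 3, at 24.8 CPM in the library labelled C57 uninjured 4, and at 17.5, 29.6, 29.6 and 15.3 CPM after injury. That library again lay within the injured range, and without it Asf1b rose (2.29 ± 0.43, adjusted p = 0.0176). Timeless and Tipin form the fork protection complex. Timeless was at 0.853, 0.287, 0.356 and 0.711 CPM in uninjured MRL, which stood for 4 to 13 counts, and at 9.91, 11.7, 3.51 and 13.0 CPM in injured MRL (4.09 ± 0.62, adjusted p = 0.00398). Tipin was at 63.3, 40.8, 52.5 and 62.0 CPM in uninjured and 66.8, 67.1, 78.9 and 141 CPM in injured MRL, and did not pass (0.69 ± 0.27, adjusted p = 0.126). In C57 Tipin was at 58.3, 75.2, 57.5 and 53.3 CPM before injury and 53.5, 53.1, 53.3 and 73.0 CPM after it, with full overlap. Clspn, encoding claspin, the adaptor of the replication checkpoint, rose from 1.02 ± 0.444 to 10.2 ± 2.496 CPM in MRL (3.30 ± 0.48, adjusted p = 0.0034).

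**Figure D4:**
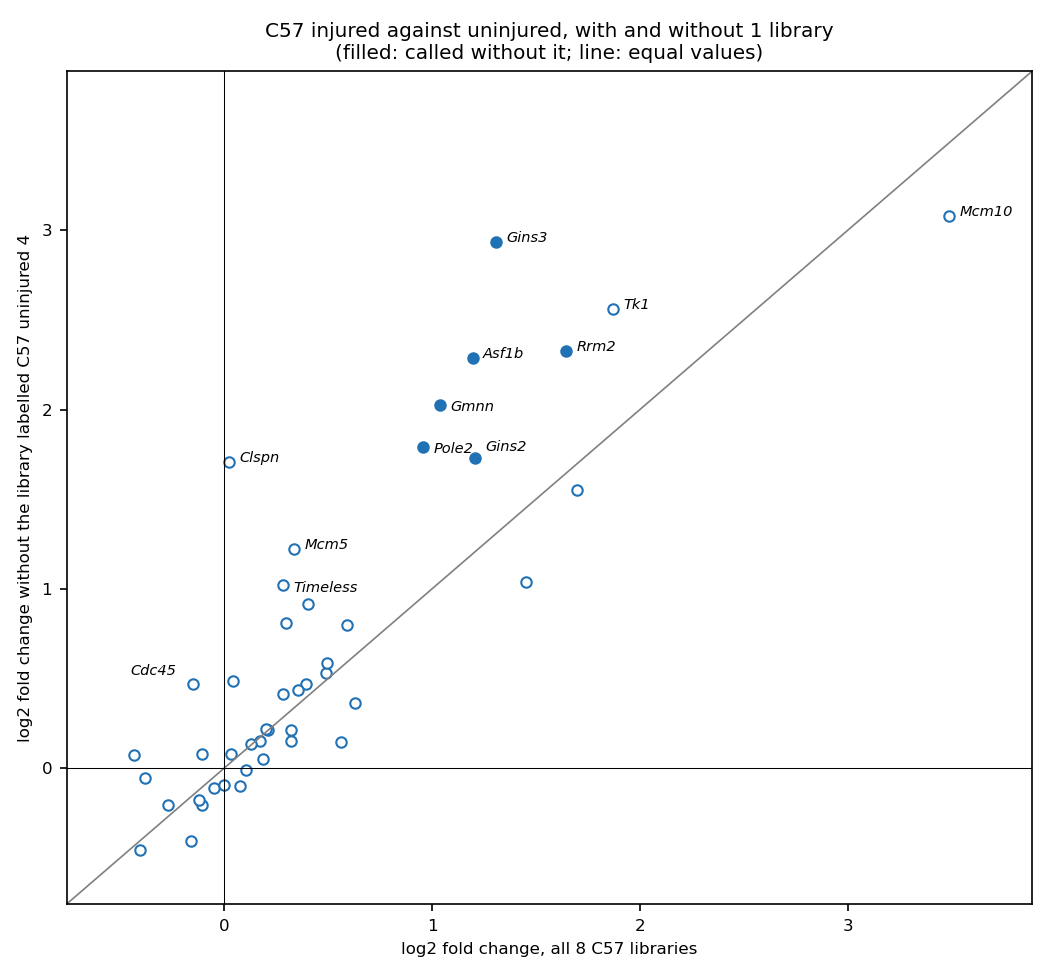
Log2 fold change of injured against uninjured C57 for each of the 45 genes with all 8 libraries (x axis) and without the library labelled C57 uninjured 4 (y axis); the diagonal marks equal values and filled points were called without that library. The 6 filled points (Gins3, Rrm2, Asf1b, Gmnn, Pole2 and Gins2) lie above the diagonal, at 1.73 to 2.93 on the y axis.

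Levels between genes can be set side by side only per length. As mean CPM per kilobase of merged annotated exons, Tipin (32.7), Gins4 (28.5) and Pcna (19.2) were highest in uninjured C57, and Gins4 (34.8), Tipin (29.2) and Pold2 (18.0) in uninjured MRL. Such a length can exceed that of the longest coding transcript (2400 against 1518 bases for Pcna), so the order is rough. In injured MRL, Rrm2 was highest at 96.7, followed by Tipin (47.4) and Gins4 (42.0), whereas in injured C57 the order was Tipin (31.2), Gins4 (29.6) and Rrm2 (28.8). Mcm10 was lowest in both uninjured groups, at 0.0273 in C57 and 0.0539 in MRL.

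Whether the injury response differed between the strains was tested as a strain-by-injury term in 1 model of the 16 libraries. None of the 45 genes was called (0% of 15947 genes tested by edgeR), with a smallest adjusted p of 0.333. An unadjusted p under 0.05 was found for 19 of the 45, all with the larger response in MRL, against 12.2% of all genes. DESeq2 called 2, Asf1b and Timeless, against 1.15% of the genes it tested. The median interaction was 0.95 on the log2 scale, and that of all genes was -0.03. Without the 2 uninjured libraries numbered 4, edgeR again called 0 (0% of all genes), 16 had an unadjusted p under 0.05 (10.6% of all genes), and the smallest adjusted p was 0.221. Of these 16, 15 had the larger response in MRL, with the smallest adjusted p for Asf1b (2.59 ± 0.61) and the largest value for Timeless (3.16 ± 0.93), and Gins3 had the larger response in C57 (-2.45 ± 0.75, adjusted p = 0.296). A larger response in MRL was thus not shown for any single gene by edgeR.

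Set directly against injured C57, injured MRL had 1 called gene of 45, Mcm5 (1.32 ± 0.25, adjusted p = 0.0201), against 1.55% of 14626 genes tested that were higher in MRL. The Mcm5 values of the 2 groups, given above, did not overlap. The call did not hold when C57 injured 2, C57 injured 4 or MRL injured 2 was left out, when the count of called genes was 0 each time. It was 2 without MRL injured 1 and 3 without MRL injured 3, and the shares of all genes called in these fits are not given here. DESeq2 called 10 of the 45, against 3.27% of the genes it tested: Mcm3, Mcm5, Cdc6, Gmnn, Gins2, Prim2, Rfc3, Rrm2, Tyms and Asf1b. In edgeR 22 of the 45 had an unadjusted p under 0.05, all higher in MRL, against 21.2% of all genes in either direction. In 11 of the 45 every injured MRL library was above every injured C57 one, against 8.57% of all genes. The median log2 difference was 0.67, with -0.06 for all genes. The injured MRL libraries were also the deeper ones, their macrophage shares overlapped those of injured C57, and the 6 endothelial markers took 0.0109% to 0.0156% of the counts in injured C57 and at most 0.00259% in injured MRL. The part of depth and of these markers in the differences was not tested.

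The uninjured strains were compared over 44 of the 45 genes, since Mcm10 was removed by the filter on low counts. None was called by edgeR (0% of 14055 genes), 2 had an unadjusted p under 0.05 (7.87% of all genes), and DESeq2 called 0 (0.647% of the genes it tested). Both, Timeless (-2.83 ± 0.91) and Asf1b (-2.14 ± 0.76), were lower in MRL, and the library labelled C57 uninjured 4 was the highest uninjured library for each. Without the 2 libraries numbered 4, again none was called (3.48% of all genes were), and 7 had an unadjusted p under 0.05 (18% of all genes), of which Orc1, Mcm4, Mcm6, Pcna and Timeless were lower in MRL and Rrm1 and Gins3 higher. Rrm1 had a log2 difference of 0.65 ± 0.15, which passed on the adjusted p (0.0303) but not on the fold limit. Gins3 had one of 2.59 ± 0.76 (adjusted p = 0.0875), and the 5 lower genes ran from -0.54 for Mcm6 to -2.51 for Orc1. Pcna summed with its pseudogene Pcna-ps2 was at 31.7, 37.7 and 40.0 CPM in MRL uninjured 1 to 3. In C57 uninjured 1 to 3 that sum was 46.8, 46.5 and 45.5 CPM. The median of the tested genes of the list was -0.13.

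The 45 genes were also summed in each library. The sum was 805, 909, 875 and 1014 CPM in uninjured C57 and 951, 1227, 1450 and 930 CPM in injured C57. It was 822, 841, 844 and 873 CPM in uninjured MRL and 1706, 1991, 1345 and 2706 CPM in injured MRL. Uninjured libraries of both strains were thus close together, the injured C57 libraries reached from the uninjured range upward, and the injured MRL libraries spanned a range of their own except that MRL injured 3 was below C57 injured 3. MRL injured 4 held the highest value of 27 of the 45 genes (60%), against 14.1% of 15947 genes, and an injured MRL library held that of 38 (84.4%), against 24.5%.

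**Figure D5:**
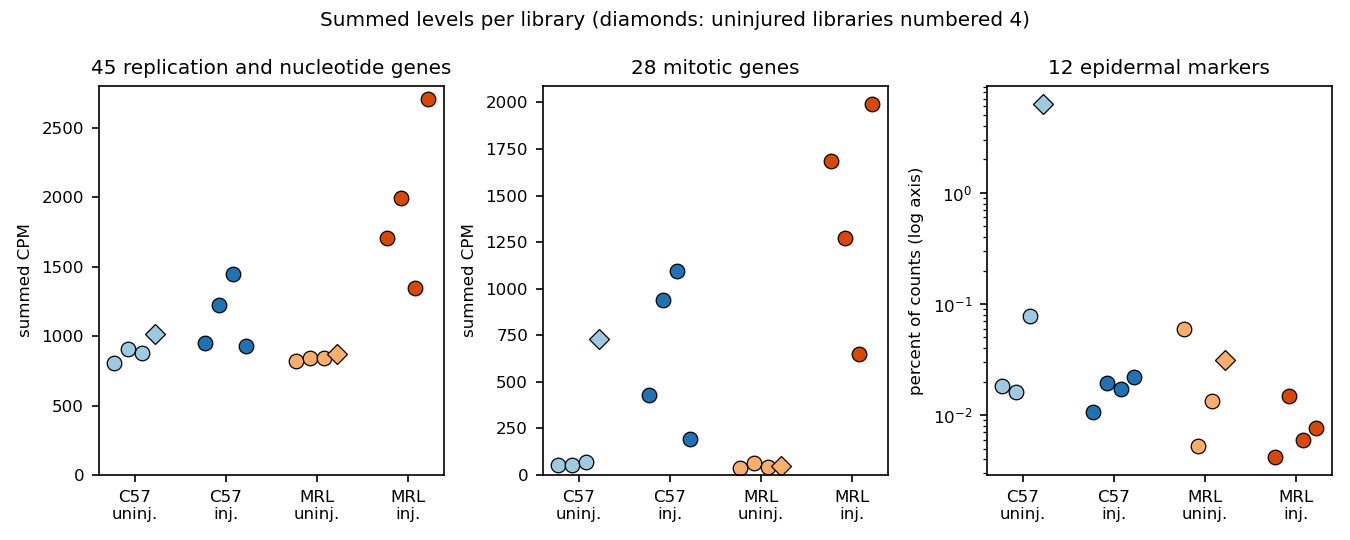
Summed CPM of the 45 genes (left), summed CPM of 28 mitotic genes (middle) and percent of counts from 12 epidermal markers on a log axis (right) in each library, with diamonds for the 2 uninjured libraries numbered 4. The library labelled C57 uninjured 4 has 1014 CPM of the 45 genes, 729 CPM of the mitotic genes and 6.33% of epidermal markers, in each the highest of the uninjured libraries.

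A further 45 genes of replication and nucleotide supply were counted as a list. In MRL 9 of 43 tested rose and none fell, against 5.25% of all genes tested that rose, with a median log2 fold change of 0.62. They were Dbf4, which activates the origin kinase Cdc7, the nuclease Dna2, the clamp loader factor Dscc1, the histone chaperone Chaf1b, Uhrf1, which maintains DNA methylation, and Dut, Dck, Nme1 and Nme2, enzymes of nucleotide supply. Dck was at 2.56, 4.09, 9.45 and 4.74 CPM in uninjured and 21.4, 24.9, 18.5 and 49.9 CPM in injured MRL. In C57 none of 44 tested was called (0.908% of all genes were called higher). An unadjusted p under 0.05 was found for 3, Dck and Samhd1 higher and Supt16 lower, against 15.3% of all genes, and DESeq2 called 1, Samhd1 (4.17% of the genes it tested). Without the library labelled MRL uninjured 4, Nme2 was not called in MRL, which left 8 (4.68% of all genes). Without the library labelled C57 uninjured 4, Dck alone rose in C57, a share below the 3.5% of all genes called higher. The E2F letters stood in 10 of the 39 genes of this list with a promoter entry (25.6%).

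The 28 mitotic genes, most of which act after replication in the same cycle, were counted as another list. All 28 rose in MRL (27 without the library labelled MRL uninjured 4, when Bub1b did not pass), against 5.25% and 4.68% of all genes, with a median log2 fold change of 5.30, larger than the 1.33 of the replication genes. In C57 none was called with all libraries, against 0.908% of all genes, 3 had an unadjusted p under 0.05, against 15.3%, and DESeq2 called 1, Ect2, against 4.17%. Without the library labelled C57 uninjured 4, 19 rose, against 3.5% of all genes. Their summed level was 54.3, 52.9 and 70.0 CPM in C57 uninjured 1 to 3, 729 CPM in the library labelled C57 uninjured 4, and 429, 939, 1093 and 195 CPM in injured C57. It was 40.1, 63.0, 42.8 and 47.3 CPM in uninjured and 1683, 1272, 649 and 1990 CPM in injured MRL. The library labelled C57 uninjured 4 thus had a mitotic sum within the injured C57 range, beside its epidermal markers and its MRL-type genes, and the part of these in the C57 comparison was not tested. MRL injured 3 was the lowest injured MRL library in both sums. Of 24 mitotic genes with a promoter entry, 1 held the E2F letters (4.17%) and 18 the cell cycle homology letters (75%).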

How the data were processed

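RNA-seq read counts per gene were deposited by the authors for 16 libraries. The submitters' processing notes name Trimmomatic 0.36, STAR 2.5.2b, Subread 1.5.0p3 with featureCounts, DESeq2 1.14.1 and build GRCm38.p5. Which annotation and strand option were used to count is not given in the sources used here. The labels name 100 ng of RNA and a TruSeq kit, whereas the study's methods name 1 ng, a SMARTer pre-amplification and NexteraXT. The study's methods give 4 animals per group. Here, genes were filtered by filterByExpr, scaled by TMM and tested in R 4.3.3 with edgeR 4.0.16 (robust quasi-likelihood F test, Benjamini-Hochberg over all genes), with DESeq2 1.42.0 as an alternative. CPM values used TMM-scaled totals. Steps were tested on simulated data with less spread than the MRL and interaction fits had, so this does not bear on the calls. The 45 genes and the other lists were chosen with earlier results of these data known. Values in every library are given for Pcna, Mcm2, Mcm5, Cdc6, Cdc45, Rrm2, Tk1, Rpa1 and Orc2, and for the smallest and largest adjusted p of each role in MRL. Values of Timeless, Mcm10 and Dck were added after they were seen. Precision at low counts is limited by a floor of 3 counts, which covers counting error only. Other scalings and filters, a replicate block and leaving out each library were tried.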

Additional observations from a re-analysis of the deposited data

Results flagged for a closer look

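In groups of 4, the gap between an end value and its neighbour, divided by the range, was set against Dixon's 95% critical value for 4 values. Over 108 groups of values 9 passed, where chance alone gives about 5.4. The library labelled C57 uninjured 4 gave 4 of the 9. It stood high for Gmnn at 14.8 CPM, Pole2 at 8.65 CPM, Rrm2 at 51.8 CPM and the summed mitotic genes at 729 CPM. The other 5 came from 5 different libraries. Mcm5 was low in MRL uninjured 2 at 3.09 CPM. Rfc1 was low in the library labelled MRL uninjured 4 at 34.4 CPM. Fen1 was high in MRL injured 2 at 2.36 CPM. Tipin was high in C57 injured 4 at 73.0 CPM and in MRL injured 4 at 141 CPM.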

How the results depend on the processing

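In C57 the count of called genes ran from 0 to 6 as each library was left out in turn, and it was 6 without the library labelled C57 uninjured 4 and also with C57 injured 1 left out as well, an alternative added after the data were seen. In MRL that count ran from 14 to 21, and 13 of the 19 genes (Gmnn, Mcm2, Mcm3, Mcm5, Mcm6, Gins2, Lig1, Rrm2, Tyms, Tk1, Clspn, Timeless and Asf1b) were called in all 15 alternatives. Cdc6, Cdt1, Cdc45, Pole2, Rfc3 and Rfc4 were called in 6 to 13 of them. Between injured strains the count was 10 with DESeq2, 3 without a filter on low counts, 0 in 1 fit over all 16 libraries and 0 to 3 as each library was left out. For the interaction it was 2 with DESeq2. With the replicate number as a block, the count between uninjured strains was 0, as without it, and the deviations of same-numbered libraries had correlations of -0.39, 0.08, -0.12 and -0.26, so the numbers did not pair the libraries. The shares of all genes called, which also differ between alternatives, are not set beside these counts. The cause of these differences was not tested.

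In C57 28 of the 45 genes had a positive fold change in every alternative. Those that changed sign, none of them called with all libraries, included Clspn (-0.29 to 1.96), Timeless (-0.0728 to 1.08), Cdt1 (-0.66 to 0.39) and Prim1 (-0.70 to 0.14). Among the 25 genes whose values are given by library, they were in C57 Orc2 (0.00307 with DESeq2, 0.0803 with total counts), Cdc45 and Tipin (0.00599 and 0.00905 with total counts), and Cdc45 and Pold2 (0.41 and -0.0752 with both C57 libraries left out). Over single libraries left out, the C57 range was -0.11 to 0.0143 for Orc2, -0.37 to 0.48 for Mcm2, -0.48 to 0.47 for Cdc45, -0.41 to 0.0478 for Prim2, -0.10 to 0.28 for Pold2 and -0.0363 to 0.14 for Rfc1. The MRL range was -0.47 to 0.0890 for Orc2, -0.00533 to 0.23 for Pold2 and -0.0347 to 0.17 for Rfc1. Total-count scaling moved the median of all genes by over 0.1 on the log2 scale in C57 (from -0.05 to 0.08), the interaction (from -0.03 to -0.14) and between injured strains (from -0.06 to -0.20), and that of the 45 genes to 0.44, 0.77 and 0.53. Mcm10 was at 3 counts or fewer in 5 of the 8 uninjured libraries, where depth limits any fold change.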
